A study of Mus musculus with 8 samples.

Results

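Broad 5-hmC regions shared by all libraries were 14052 stretches of the mouse genome at which every one of 4 hMeDIP-seq libraries of pro-B cells had at least 400 bp of peak. They were chosen by merging the peaks of the 4 lists that shared at least 1 bp and by adding up, for each library, the widths of its peaks inside each merged region. On chromosomes 1 to 19, 2463835 merged regions were found, of which 309563 had a peak in all libraries. The broad regions made up 0.570% of all merged regions and 4.54% of those shared by all libraries, and the other 295511 shared regions are called narrower here. Since peak widths selected the members, the widths are given below as a description, whereas base composition and position in the genome were not used by the rule.

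The libraries came from B220+CD43+IgM- pro-B cells sorted from the bone marrow of C57BL/6 mice between 4 and 6 weeks old, with 2 libraries per genotype. HDAC7-deficient cells were Hdac7 fl/- cells in which mb1-Cre, a recombinase expressed from the Cd79a locus of the B lineage, deletes the floxed allele. The controls, labelled wild-type, were described in the methods as Hdac7+/- littermates, so that both genotypes lacked 1 allele of Hdac7 in all cells. Genomic DNA was sonicated to 350 bp and immunoprecipitated with an antibody against 5-hmC. Whether the libraries of a genotype came from separate mice is not given in the sources used here, so any p below measures only the spread between libraries.

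The deposited lists hold 1246432, 1345949, 1364224 and 1283899 autosomal peaks, in the order wild-type replicate 1, wild-type replicate 2, HDAC7-deficient replicate 1 and HDAC7-deficient replicate 2, which is kept wherever a value is given for each of the 4 libraries. They give positions and no read counts, so depth is unknown, and neither the deletion of Hdac7 nor the sorted cell type could be checked from them.

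5-hydroxymethylcytosine (5-hmC) is made from 5-methylcytosine by the TET dioxygenases and is found mostly at cytosines followed by guanine (CpG). It is both an intermediate of DNA demethylation and a lasting mark, known for its presence over the bodies of active genes and at enhancers, and for its scarcity at CpG-rich promoters. In early B cells TET2 and TET3 act at enhancers of lineage genes. Class IIa HDACs such as HDAC7 bind MEF2 transcription factors and recruit corepressors.

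Broad regions often had an unequal share of guanine on their strands. The 9 sequences of GRCm38 below are printed to show this feature in 8 regions, beside a comparison stretch from outside the first of them, and the feature was looked at after the composition of the regions had been seen. Each of the 8 is centred on the widest stretch under peaks of all libraries, which may lie away from the middle of the region. The rule does not ask that peaks of different libraries cover the same bases, so this stretch can be short. Of the 14052 regions, 13544 had at least 50 bp under peaks of all libraries. The region on chromosome 17 printed below had 26 such bp, so most of its printed bases are not under all peaks. Each sequence is 200 bp long, reads 5′ to 3′ on the strand richer in guanine, and has every guanine in capitals. The first pair and the third line show the regions with the most peak bases and a stretch beside the first of them, the next pair shows the regions with the widest gap between genotypes, and the next 3 lie in genes of the B lineage. The last, from the heavy chain locus, lies in no gene and was chosen after its values had been seen.
First by peak bases, intergenic, chr14:13142380-13142579, plus strand: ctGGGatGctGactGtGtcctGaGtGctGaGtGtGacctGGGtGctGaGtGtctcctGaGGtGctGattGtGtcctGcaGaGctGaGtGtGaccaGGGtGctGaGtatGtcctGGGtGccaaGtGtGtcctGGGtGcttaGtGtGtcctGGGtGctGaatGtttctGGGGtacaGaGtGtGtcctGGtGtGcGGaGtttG
The same strand 5000 bp away, chr14:13147380-13147579, plus strand: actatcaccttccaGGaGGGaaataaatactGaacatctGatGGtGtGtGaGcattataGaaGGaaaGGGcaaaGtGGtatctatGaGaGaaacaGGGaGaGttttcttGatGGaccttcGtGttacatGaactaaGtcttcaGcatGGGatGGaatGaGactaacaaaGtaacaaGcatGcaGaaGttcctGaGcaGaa
Second by peak bases, upstream of Inpp5d, chr1:87607575-87607774, plus strand: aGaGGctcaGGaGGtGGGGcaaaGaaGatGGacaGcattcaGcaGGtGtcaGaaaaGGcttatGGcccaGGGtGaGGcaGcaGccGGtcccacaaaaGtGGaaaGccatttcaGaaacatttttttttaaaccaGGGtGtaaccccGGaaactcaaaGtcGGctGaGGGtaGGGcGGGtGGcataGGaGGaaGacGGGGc
More peak bases in wild-type, intergenic, chr4:130207234-130207433, plus strand: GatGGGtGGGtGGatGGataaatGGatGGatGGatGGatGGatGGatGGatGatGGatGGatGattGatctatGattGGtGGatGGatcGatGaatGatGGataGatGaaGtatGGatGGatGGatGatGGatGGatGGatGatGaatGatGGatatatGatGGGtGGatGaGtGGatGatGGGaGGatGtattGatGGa
More peak bases in HDAC7-deficient, intergenic, chr17:3070841-3071040, minus strand: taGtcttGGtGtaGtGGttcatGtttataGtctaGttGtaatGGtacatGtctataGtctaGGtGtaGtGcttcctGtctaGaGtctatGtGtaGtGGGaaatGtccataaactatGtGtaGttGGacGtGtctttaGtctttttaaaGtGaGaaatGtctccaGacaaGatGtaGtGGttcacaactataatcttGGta
Erg intron, chr16:95400011-95400210, plus strand: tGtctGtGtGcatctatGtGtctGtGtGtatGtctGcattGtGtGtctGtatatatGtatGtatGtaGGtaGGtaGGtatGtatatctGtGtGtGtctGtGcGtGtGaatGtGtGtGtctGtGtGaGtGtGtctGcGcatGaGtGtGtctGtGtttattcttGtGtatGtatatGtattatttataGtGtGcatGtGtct
Bach2 intron, chr4:32399661-32399860, plus strand: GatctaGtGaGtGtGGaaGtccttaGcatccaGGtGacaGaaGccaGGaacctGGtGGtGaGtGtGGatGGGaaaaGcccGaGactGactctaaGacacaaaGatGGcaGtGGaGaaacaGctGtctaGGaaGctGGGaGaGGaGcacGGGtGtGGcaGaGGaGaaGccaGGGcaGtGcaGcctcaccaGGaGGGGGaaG
Ebf1 intron, chr11:44669590-44669789, plus strand: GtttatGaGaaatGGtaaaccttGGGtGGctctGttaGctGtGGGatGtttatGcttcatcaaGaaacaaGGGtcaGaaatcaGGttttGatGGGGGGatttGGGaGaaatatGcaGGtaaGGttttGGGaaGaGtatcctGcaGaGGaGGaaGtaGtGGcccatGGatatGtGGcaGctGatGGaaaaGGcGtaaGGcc
Heavy chain locus, upstream of Ighg3, chr12:113363219-113363418, minus strand: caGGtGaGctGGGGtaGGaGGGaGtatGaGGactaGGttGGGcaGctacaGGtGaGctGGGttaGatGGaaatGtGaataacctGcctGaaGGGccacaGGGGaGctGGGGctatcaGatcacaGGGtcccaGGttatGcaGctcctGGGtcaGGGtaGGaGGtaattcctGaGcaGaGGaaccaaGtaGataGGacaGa

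In the stretch from the first region, 78 guanines stood against 35 cytosines, and in the stretch on the same strand 5000 bp away 53 against 30. In the region with more peak bases in wild-type, 85 guanines stood against 2 cytosines in repeated short units, and 1 CpG was present. The Erg stretch held 61 guanines against 18 cytosines with many alternations of T and G. It lies in a region of which the reference marks 94.1% of bases as repeat or low-complexity. The Bach2 and Ebf1 stretches held 77 and 70 guanines against 36 and 23 cytosines. The stretch upstream of Ighg3 held 77 guanines, 33 cytosines and no CpG.

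To describe all members, GC skew was computed in a window of 400 bp at the midpoint of each region as the difference between the numbers of G and C divided by their sum, and its absolute value was taken because neither strand was preferred. The median absolute GC skew was 0.319 over the 14052 broad regions (quartiles 0.212 and 0.422). In windows placed 5000 bp lower and 5000 bp higher on the same chromosome it was 0.0943 and 0.0935, and at places spaced every 40 kb along the chromosomes it was 0.0922. The broad regions had the higher median than their flanks on 19 of 19 chromosomes, with chromosome medians between 0.297 and 0.344. An absolute skew of at least 0.2 was present in 10865 regions, or 77.3%, against 19.8% and 18.6% of the flanking windows. In the narrower shared regions the share was 72.4%. These shares describe the regions, which are not replicates, and no p was computed for them. The printed Ebf1 region had an absolute skew of 0.198 at its midpoint, under 0.2, although its printed stretch lay higher. The comparison stretch printed beside the first region had a skew of 0.277, above the medians of the flanking windows.

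The skew was local. In windows of 200 bp, its median was 0.333 at both 100 bp below and 200 bp above the centre, 0.145 at 500 bp and 0.123 at 800 bp above it. Taken along the guanine-rich strand, the mean signed skew passed from 0.344 at the centre to 0.0383 at 600 bp and 0.0181 at 1000 bp. The sign was set by the window at the centre, so its value there is positive by construction. The plus strand was the guanine-rich one in 49.96% of regions. Adenine also exceeded thymine on the guanine-rich strand in 71.7% of regions, against 55.1% of the windows 5000 bp higher. The median excess of one strand in purines was 22 percentage points of the bases, against 8.5 in both flanks and 19.5 in narrower shared regions.

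**Figure D1:**
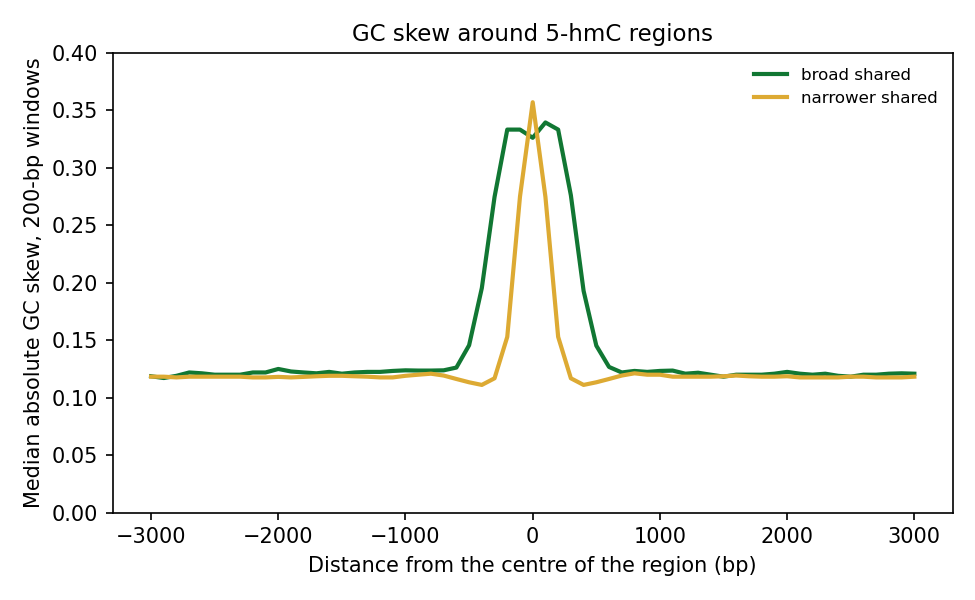
Median absolute GC skew in windows of 200 bp (vertical axis) against the distance from the centre of the region in bp (horizontal axis), for broad and narrower regions shared by all libraries. In broad regions the median is 0.333 at 200 bp from the centre and 0.123 at 800 bp.

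In windows of 400 bp, skew was higher in regions found in more libraries. In every 10th region with a peak in 1, 2 or 3 libraries the median absolute skew was 0.122, 0.182 and 0.233, in the narrower shared regions it was 0.265, and in the broad regions 0.319. Broad regions were above narrower ones on 19 of 19 chromosomes. The order depended on the window, since in the central 200 bp the narrower regions had the higher median, 0.357 against 0.326, and at 200 bp from the centre the lower one, 0.153 against 0.333. Within single libraries, peaks under 100 bp wide had a median skew between 0.143 and 0.168. Those of at least 400 and under 800 bp had medians of 0.358, 0.256, 0.340 and 0.274. Peaks of 800 bp or more had 0.389, 0.240, 0.369 and 0.262, so skew did not rise further with width in the second replicates. The first replicates of both genotypes lay above the second ones. Peaks of 400 bp or more made up 5.24%, 9.54%, 3.88% and 10.2% of the lists. The part of this difference between replicates in the skew was not tested.

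**Figure D2:**
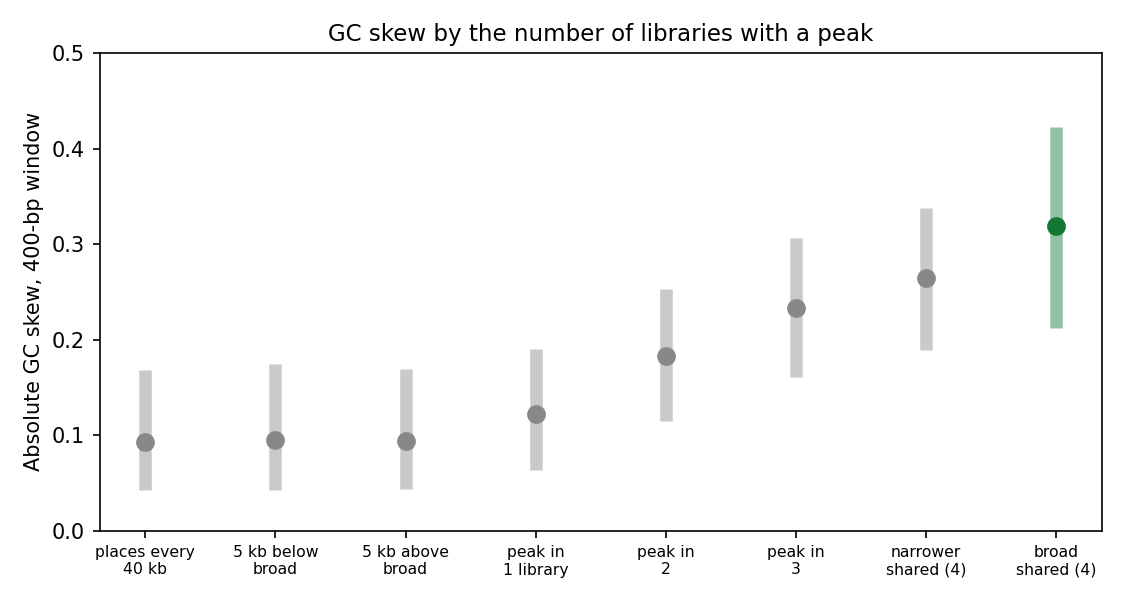
Absolute GC skew in windows of 400 bp (points, median over windows; bars, quartiles) at places every 40 kb, at 5 kb on each side of broad regions, in regions with a peak in 1, 2 or 3 libraries, and in narrower and broad regions with a peak in all 4. Medians run from 0.0922 at the spaced places to 0.319 in broad regions.

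No difference between genotypes beyond the spread was seen in this measure. At the widest peak of each library in each broad region the median absolute skew was 0.361, 0.322, 0.351 and 0.329. The difference between HDAC7-deficient and wild-type libraries was -0.00155, less than the SD between replicates of 0.0275 and 0.0159 (n = 2 per genotype; two-sided exact permutation test, p = 1). With 2 libraries per genotype such a test cannot give a p below 0.333. The guanine-rich strand at the widest peak was that of the region's midpoint in 90.7% to 91.6% of regions, depending on the library.

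Inside genes, the guanine-rich strand was the coding strand more often than in the DNA nearby. Of 5920 broad regions in protein-coding genes of a single orientation, 58.2% had more guanine on the coding strand. For 5324 windows 5000 bp higher that were still in genes of the same orientation, the share was 54.3%.

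Skew was also present outside repeats. Among 1216 broad regions with no soft-masked base (a base that the reference marks as repeat or low-complexity) in the central window, the median absolute skew was 0.308, against 0.0811 in the 1383 windows 5000 bp higher that had none. Tandem repeats were nevertheless more common in broad regions than in their flanks. A window was counted as tandem when at least 60% of its bases equalled those at some shift of 2 to 200 bp. This was so in 732 broad regions, or 5.21%, against 0.669% and 0.805% of flanking windows and 1.25% of narrower shared regions. Among broad regions, 2.72% had a best shift of up to 6 bp and 2.49% a longer one. The remaining 13320 regions had a median skew of 0.310.

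Dinucleotide repeats of at least 10 units were not more common than in the flanks. They were present in 7.98% of broad regions, against 14.01% and 13.7% of stretches of the same width 5000 bp lower and higher. Repeats of GA were found in 4.21% of broad regions and in 4.67% and 4.35% of flanks, whereas repeats of CA were found in 3.99% against 10.1% and 9.83%. Narrower shared regions, which are shorter stretches, had fewer, with 4.44% for any dinucleotide repeat, 2.89% for GA and 1.67% for CA. Soft-masked bases made up 36.8% of the central windows on average, against 31.9% and 32.2% of the flanks and 38.0% of narrower shared regions.

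CpG, the usual site of the substrate of TET enzymes, was no more frequent in broad regions than around them. A median of 6 CpG was present in a broad region (quartiles 4 and 11), or 0.688 per 100 bp, and 318 regions, or 2.26%, had no CpG at all. In the central windows the mean was 0.843 CpG per 100 bp, against 0.911 and 0.921 in the flanks, and it was above the flanks on 1 of 19 chromosomes. Narrower shared regions had a mean of 0.822 and the places every 40 kb one of 0.849. GC content was slightly higher in broad regions, with a median of 44.5% against 43.0% in both flanks, and above the flanks on 19 of 19 chromosomes. Only 40 broad regions met a definition of CpG islands (GC content of at least 55% and an observed to expected CpG ratio of at least 0.6).

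Short matches to transcription factor motifs were searched on both strands of the central windows, with N standing for any base. The E2A motif CAGGTG was present in 23.1% of broad regions, 23.3% of flanks and 22.4% of narrower regions, and the EBF1 motif CCCNNGGG in 7.92%, 7.66% and 7.10%. The PU.1 motif GAGGAAGT, itself made of purines, was present in 3.43% of broad regions, 2.59% of flanks and 3.24% of narrower regions. In the same order, the RUNX motif TGTGGTT was present in 7.79%, 9.35% and 8.56%, and the AP-1 motif TGANTCA in 8.97%, 11.6% and 9.98%. The MEF2 motif CTAAAAATA was present in 0.576%, 1.01% and 0.824%, and the CTCF motif CAGGGGGC in 0.925%, 0.968% and 0.928%. Sequences with 4 runs of at least 3 G, 1 to 7 bp apart, as in G-quadruplexes, were present in 10.4% of broad regions, 7.85% of flanks and 15.1% of narrower regions. A match is a description of letters and not evidence of binding.

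Broad regions differed among themselves in skew, and those with little skew had other features. In 1398 regions, or 9.95%, the absolute skew was under 0.1, and in 4199, or 29.9%, it was 0.4 or more. The first held a mean of 1.06 CpG per 100 bp and the second 0.568. Tandem arrays made up 0.429% of the first and 16.1% of the second. The E2A motif was present in 31.5% of the first and 16.6% of the second, and exons held 5.44% and 1.74%. The median number of peak bases differed less, with 593.5, 686, 575 and 698 bp for the first, and 609, 613, 577 and 611 bp for the second.

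As merged, broad regions had a median width of 923 bp (range 457 to 4968 bp), against 439 bp for the narrower shared regions, and 8465 of them, or 60.2%, were at most 1000 bp wide. The median number of peak bases per region was 605, 654, 581 and 653 bp. Both second replicates were above both first ones. Peaks were often split, with a mean number per region between 1.89 and 2.23. HDAC7-deficient replicate 1 had the fewest bases, and so decided membership, in 4598 regions, and HDAC7-deficient replicate 2 in 2756. Near the threshold, 1180 regions were less than 10 bp above it in their lowest library and 1263 at most 10 bp below it, with median merged widths of 763 and 765 bp. With 600 bp in each library 2731 regions were left, with 800 bp 620, and with 2000 bp 6.

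**Figure D3:**
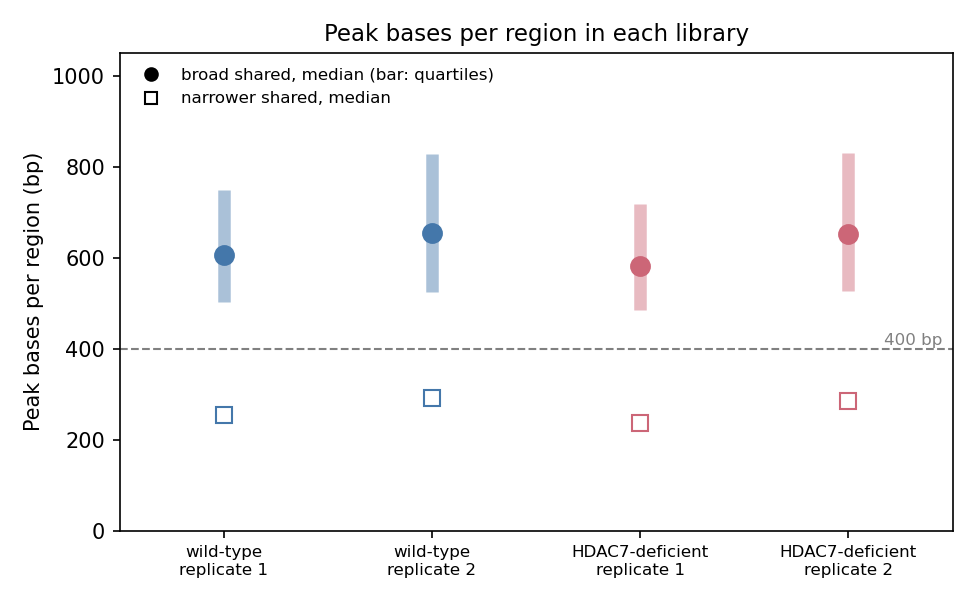
Peak bases per region in bp (vertical axis) in each of the 4 libraries, as the median (filled points) and quartiles (bars) over broad regions and the median over narrower shared regions (open squares), with the threshold of 400 bp dashed. Medians of broad regions lie between 581 and 654 bp, and the second replicate of each genotype is above the first.

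Peaks covered 9242561, 9963843, 8896477 and 10035577 bp of them. The lowest and the highest value were both from HDAC7-deficient libraries. The ratio of means was 0.986 ± 0.0989 (SD propagated from the replicates, n = 2 per genotype) and was not tested, because the rule had used the same widths. Its direction rested on single libraries, since the ratio was 1.02 without wild-type replicate 2 and 1.04 without HDAC7-deficient replicate 1. Broad regions held 4.10%, 3.86%, 3.99% and 3.94% of all autosomal peak bases.

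Region by region, both HDAC7-deficient libraries had more peak bases than both wild-type libraries in 1801 broad regions (12.8%), where the share over all 309563 shared regions was 12.8%. Both wild-type libraries had more in 2371 broad regions (16.9%), where the share over all shared regions was 17.8%. Without scaling the members were thus near the background in both directions. When the bases were divided by the total of each library over all shared regions, the counts were 2452 (17.4%) and 1804 (12.8%), where the shares over all shared regions were 15.4% and 16.4%. Which of the counts was larger thus depended on the scaling. Members higher in both wild-type libraries lay below the background with and without scaling. Those higher in both HDAC7-deficient libraries lay at it without scaling and above it with scaling. The median log2 ratio of mean bases per region between HDAC7-deficient and wild-type libraries was -0.03, with 38 regions at least 2-fold higher and 19 at least 2-fold lower. Between single libraries the bases differed at least 2-fold in 1.82% to 4.87% of regions, and the 4.86% between the wild-type replicates was among the largest of these shares.

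Of the 10 regions with the widest gaps between genotypes, 6 were intergenic. Peaks covered 1575, 454, 2440 and 3871 bp of chr17:3070526-3074514. The gap of 865 bp between the nearest libraries was the largest in this direction, but the wild-type replicates themselves differed by more. At chr7:61646704-61649223 the values were 791, 713, 1591 and 2414 bp, but no base there was under peaks of all libraries. At chr16:73301620-73302890, in a noncoding transcript, they were 609, 588, 1207 and 1201 bp. In Ptprm, which encodes a receptor tyrosine phosphatase, they were 501, 921, 1580 and 1602 bp, in a region that was 70.6% soft-masked and held no CpG. The remaining one of the 5, an intergenic region, showed 679, 713, 1390 and 2742 bp.

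In the opposite direction, the region chr4:130204461-130207954 had 3324, 2838, 2173 and 2069 bp. An intron of Lyn, which encodes a Src-family kinase that phosphorylates the B cell receptor complex, had 1118, 1114, 511 and 511 bp at chr4:3801008-3802207, a region that was 81.5% soft-masked. A region of Notch4, a Notch receptor gene, 705 bp from its start, had 1356, 1359, 439 and 774 bp. The replicates of each genotype were close in Lyn. The last pair were intergenic, with 2475, 2598, 1885 and 813 bp on chromosome 1 and 1649, 1715, 1018 and 1070 bp on chromosome 12. These regions were picked for their gaps, so that the values are a description.

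The regions with the most peak bases in their lowest library lay mainly between genes. The first, chr14:13137965-13142932, had 3832, 3308, 2688 and 4321 bp, was 55.2% GC and lay at -144331 bp (upstream) from the nearest protein-coding start, that of the synaptic vesicle gene Synpr. The second, chr1:87604957-87608491, had 2770, 2830, 2613 and 2910 bp and lay at -13588 bp from the start of Inpp5d, which encodes the SHIP1 phosphatase of blood cells. It held 47 CpG, the most among the 10. All libraries were close to each other there.

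The third, chr7:29532571-29536408, had 3293, 2583, 3469 and 3282 bp and lay in the pseudogene 4932431P20Rik. A region of chr12:109476367-109478783 had 2384, 2277, 2223 and 2139 bp at 24752 bp downstream of the start of Dlk1, an imprinted gene, and was 83.6% soft-masked with 3 CpG. Its central window had an absolute skew of 0.894. Of the other 6, 1 was in an intron of Gm7247 and 5 were intergenic, with between 1814 and 2194 bp in the lowest library. The absolute skew was at least 0.2 in 9 of the 10, the exception being the region upstream of Med30 with 0.0588. Of the 10 widest regions, 5 were among these 10. The others included introns of Kcnk9, a potassium channel gene, with 3867, 777, 2206 and 3897 bp, and of Nfic, a transcription factor gene, with 2493, 1572, 2756 and 2884 bp. Wild-type replicate 2 was the lowest library in both.

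Introns held 43.6% of broad regions, intergenic sequence 49.5%, promoters (1000 bp upstream to 100 bp downstream of a transcript start) 3.86% and exons 3.06%, by midpoint. The shares of narrower regions were 41.5%, 51.6%, 3.73% and 3.18%, and those of positions every 1000 bp were 41.7%, 50.3%, 3.73% and 4.30%. In the regions with at least 1000 bp in each library, promoters held 7.04% and exons 6.53%, or 14 and 13 regions, and in those with at least 800 and under 1000 bp promoters held 3.56% and exons 4.04%. The median distance to the nearest protein-coding start was 55854.5 bp for broad regions, 69197 bp for narrower ones and 72536 bp for the positions.

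Close to gene starts the pattern changed. Within 500 bp of a start, 88 broad regions were found, 0.760 times their share among all positions, whereas between 500 and 1000 bp the 160 regions made 1.41 times it. Between 1000 and 50000 bp the broad regions were 1.11 to 1.21 times as common as positions, and beyond 100000 bp 0.864 times. The narrower regions varied less, between 0.953 and 1.10 times. Around the 8252 CpG-rich starts, 28 broad regions had their midpoint within 500 bp, or 3.39 per Mb, against 4.78 per Mb around the 12555 other starts and 5.71 per Mb on chromosomes 1 to 19.

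**Figure D4:**
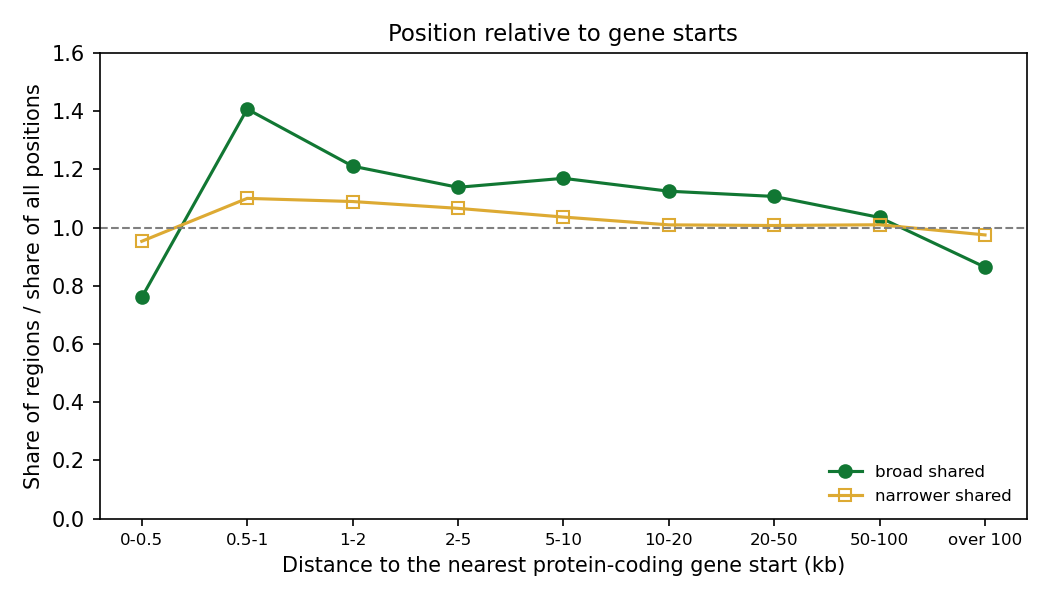
Share of regions divided by the share of all positions (vertical axis) by distance to the nearest protein-coding gene start in kb (horizontal axis), for broad and narrower shared regions, with 1 dashed. Broad regions are at 0.760 within 0.5 kb and at 1.41 between 0.5 and 1 kb.

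Density varied along the genome. Chromosomes 1 to 13 held 5.46 broad regions per Mb and chromosomes 14 to 19 held 6.51, with chromosome 19 highest at 7.16. With HDAC7-deficient replicate 2 left out of the rule the densities were 7.51 and 7.41, so the difference was not seen without this library, which had on average 707 bp per broad region on chromosomes 1 to 13 and 734 bp on chromosomes 14 to 19. The other libraries differed between both sets of chromosomes by less. Of all broad regions 15.8% lay within 10 kb of another. The run with the most regions was in Pde2a, which encodes a cyclic nucleotide phosphodiesterase, and the overlapping model Gm45837, with 6 regions in 21.5 kb and 6542, 5847, 6060 and 5674 peak bases. Runs of 5 regions lay at Klk6 and Klk7, kallikrein protease genes, and in Trim3, a ubiquitin ligase gene. Runs of 4 included those between genes on chromosome 1 and in Aff3, which encodes a nuclear protein of lymphoid cells. These were tied with others, among them runs at Itgb3 and in the heavy chain locus.

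The heavy chain locus, examined after its values had been seen, held a group of broad regions upstream of its constant genes. These stretches include the switch regions, G-rich repeats at which class switch recombination takes place in mature B cells. In the 188 kb around the constant genes 8 broad regions were found, or 4.26 per 100 kb, against 0.571 on chromosomes 1 to 19. Of these, 4 had Ighg3 as the next constant gene downstream, 2 had Ighg1 and 2 had Ighg2b. The widest, chr12:113362926-113366119, ranked 13 of all broad regions by its lowest library, with 2381, 1924, 1723 and 2558 bp. The next, 1493 bp upstream of Ighg2b, had 1395, 1324, 1639 and 1954 bp. Absolute skew was between 0.250 and 0.548 in the 8 regions, and the guanine-rich strand was the minus strand, on which the constant genes are coded, in 6 of them. They held 2 to 12 CpG each.

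Of 20807 protein-coding genes, 3770, or 18.1%, had the midpoint of a broad region in the gene body (19.97% with 2000 bp on each side), and the density was 0.602 per 100 kb of gene. Long genes had the largest counts, with 18 regions each in Pde4d, a phosphodiesterase gene, and Rbfox1, a splicing factor gene, and 13 in Nrxn3, a synaptic adhesion gene. The model Gm20388, with 41, spans 4435 kb and other genes, and Fgfr2, with 14, spans 2961 kb in this annotation. Per length, among 547 genes of at least 20 kb with at least 3 regions, Trim3 was the densest with 5 regions, or 17.2 per 100 kb, and Glipr2 (13.8) and Gabbr1 (13.7), a GABA receptor gene, were also among the densest. Peaks covered 3488, 3741, 3066 and 3467 bp of the broad regions in Trim3, both wild-type values being above both HDAC7-deficient ones by a gap smaller than that between the replicates of each. The pair Pde2a and Gm45837, which overlap, and Spi1 were also among the 15 densest.

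Genes for transcription factors of the B lineage and for pre-B cell receptor signalling had more broad regions per length than protein-coding genes as a whole. This was not particular to them, since myeloid and AP-1 genes had 1.55 per 100 kb. Genes of proliferation and survival had 0.477. Of 20 genes for transcription factors of the B lineage, 13 held a broad region, and the density was 1.70 per 100 kb for broad and 16.6 per 100 kb for narrower shared regions, against 0.602 and 11.9 over all protein-coding genes. Erg, an ETS factor gene of progenitors, held 8 regions with 4569, 5532, 4395 and 5712 peak bases. Bach2, which encodes a repressor active in developing and activated B cells, held 6 regions with 4269, 4041, 3898 and 3718 bases. Runx1 held 4 with 2835, 2058, 2791 and 3196 bases, and Ebf1, which encodes a factor that specifies the B lineage, 4 with 2076, 2784, 2133 and 2082 bases. Spi1, the gene of PU.1, held 3 regions, or 8.99 per 100 kb, with 2154, 2103, 1854 and 2025 bases. In Bach2 and Spi1 both wild-type values were above both HDAC7-deficient ones, by gaps smaller than those between the HDAC7-deficient replicates. In the other 3 genes the genotypes overlapped. Pax5, which maintains B cell identity, held 1 region of 482, 407, 457 and 516 bases. In the 40 regions of this list, the HDAC7-deficient libraries were both higher in 4 and the wild-type libraries both higher in 5, where the shares over all shared regions were 12.8% and 17.8%.

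Of 19 genes of the pre-B cell receptor and its proximal signalling, 9 held a broad region, at 1.22 per 100 kb. Prkcb, a protein kinase C gene, held 4 regions with 4235, 3925, 3474 and 4505 bases, and Blnk, which encodes the adaptor downstream of the kinase SYK, held 2 with 2182, 1731, 1656 and 1274 bases. Plcg2 and Pik3ap1 followed with 2 each. The genotypes did not overlap in Blnk, where wild-type was higher, but the gap between them was smaller than that between the replicates of each. The absolute skew was at least 0.2 in 26 of the 40 regions in transcription factor genes and in 7 of the 16 in signalling genes, against 4616 of 5989 in all protein-coding genes. It was so in 6 of 11 regions in genes of V(D)J recombination, in 2 of 4 each in those of cytokine signalling and of proliferation, and in 5 of 5 in T-lineage genes, and these differences were not tested. Of broad regions with a skew under 0.1, 7 (0.501%) lay in the transcription factor genes and 5 (0.358%) in the signalling genes, against 0.285% and 0.114% of all broad regions. For narrower regions with a skew under 0.1 these shares were 0.338% and 0.113%, against 0.132% and 0.0714% of all narrower regions.

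**Figure D5:**
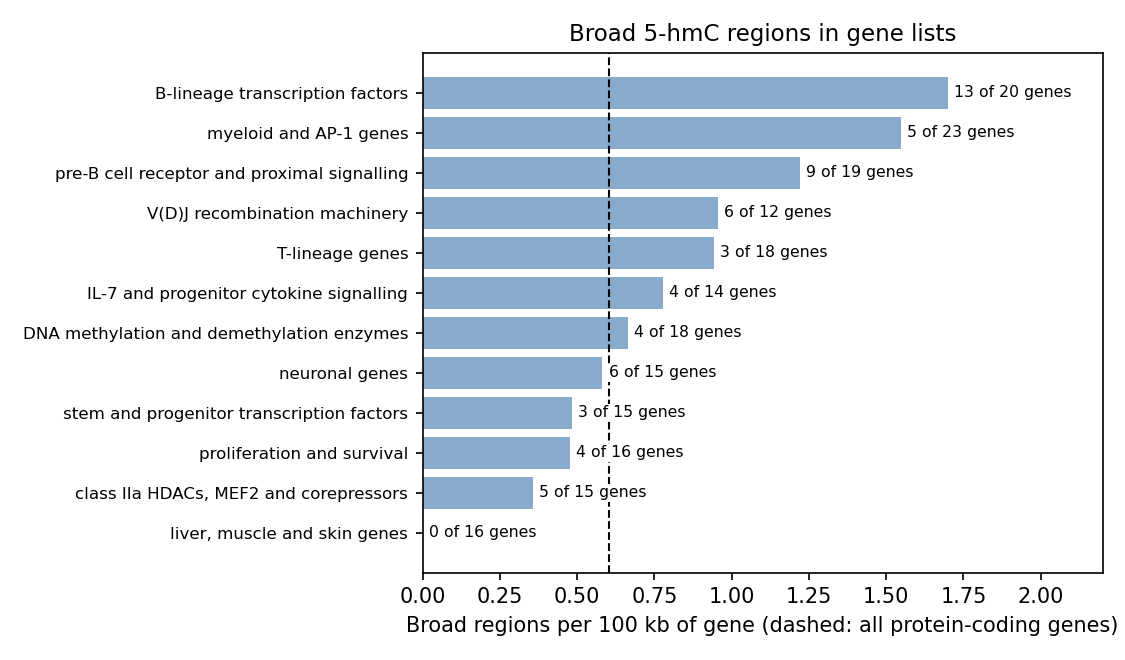
Broad regions per 100 kb of gene body (horizontal axis) in 12 gene lists, with the number of genes that hold a broad region, and all protein-coding genes dashed at 0.602. B-lineage transcription factors are highest at 1.70, and liver, muscle and skin genes hold none.

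Other lists were closer to all genes or rested on few regions. Of 23 myeloid and AP-1 genes 5 held 7 regions, at 1.55 per 100 kb, led by Ahnak, which encodes a large scaffold protein, and Adgre1, the gene of F4/80, with Csf1r and Itgam. The summed bases of this list were 4681, 4869, 4950 and 6221. Both HDAC7-deficient values were above both wild-type ones, by a gap smaller than that between the replicates of each. These bases were not scaled by library, and the part of myeloid cells in any result was not tested. Of 12 genes of V(D)J recombination 6 held 11 regions, at 0.956 per 100 kb, with 3 each in Prkdc and Atm, kinase genes of the DNA break response, 2 in Hmgb1 and 1 in Rag1, a subunit of the recombinase. Of 18 T-lineage genes 3 held 5 regions (0.943 per 100 kb), in Notch3, Tcf7 and Zap70, with 3457, 3733, 2918 and 3771 bases in all. Among 14 genes of IL-7 and progenitor cytokine signalling, 4 held 1 region each (0.778 per 100 kb). One of these, Stat5b, which encodes a transducer of IL-7 signals, had 1220, 1204, 563 and 778 bases, the wild-type values being the higher ones. Crlf2 went the other way, with 497, 444, 634 and 701 bases. In the others, Jak3 and Stat5a, the genotypes overlapped.

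Of 18 genes of DNA methylation and demethylation 4 held 5 regions (0.663 per 100 kb), in Mbd2, Mbd1, Idh2 and Tet1. Neuronal genes held 18 regions in 6 of 15 genes (0.582 per 100 kb), among them Rbfox3, Grin2b and Syt1. Stem and progenitor factors held 7 in 3 of 15 genes (0.483 per 100 kb), among them Mecom and Etv6, and genes of proliferation and survival 4 in 4 of 16 (0.477 per 100 kb), in Ccnd3, Cdk6, Rb1 and Bcl2l1. Class IIa HDACs, MEF2 factors and corepressors held 8 in 5 of 15 genes (0.358 per 100 kb), among them 2 in Tbl1xr1 and 1 each in Hdac7, Mef2c and Hdac9. The region in Hdac7 had 676, 681, 451 and 771 bases, so the genotypes overlapped. None of 16 genes of liver, muscle and skin, with 435 kb in all, held a broad region, and narrower regions were present in them at 10.8 per 100 kb.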

How the data were processed

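The deposited values are the chromosome, start and end of each peak, a score-free list of positions made by the authors for each library separately. Reads were trimmed (Cutadapt 1.6 under Trim Galore 0.4.2), and peaks were stretches of at least 10 bp, joined over gaps of up to 10 bp, in which MACS2 bdgpeakcall found an RPKM-normalized signal past a cutoff of 250. The methods state that peaks meeting an input peak were dropped, but the sources used here do not say if the deposited lists are those from before or after that step. The methods name bwa as aligner and the submitters' processing notes Bowtie2. No height or read count was used here, so depth is unknown and no counting interval is given.

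Peaks were merged with NumPy 2.4.6 in Python 3.11.15, and the number of merged regions on chromosome 19 was checked against bedtools 2.31.1. The code was tested on simulated data. No autosomal peak ended past a GRCm38 chromosome. Genes came from GENCODE M21, sequence from NCBI GRCm38. Members, gene lists and measures were chosen with earlier results of these data known, and the skew and tandem repeat measures after the composition of the regions had been seen.

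Named by rule were the 10 regions with the most peak bases in their lowest library and the 10 widest, 15 genes with the most regions and 15 with the most per 100 kb (at least 20 kb and 3 regions), up to 4 genes per list, 5 regions per direction of genotype and the 5 longest runs. Sequences of 200 bp are centred on the widest stretch under peaks of all 4 libraries. The inputs were not analysed here. Some items that these rules name are not reported here.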

Additional observations from a re-analysis of the deposited data

Results flagged for a closer look

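Chromosome X was outside the rule for broad regions. With at least 400 bp of peak in each library, it held 350 regions, or 2.05 per Mb, a signal in data that the comparisons did not use. The mean number of peak bases per such region was 900.2, 853, 765 and 1214 bp, in the order of libraries used above. The HDAC7-deficient libraries held both the lowest and the highest value.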

How the results depend on the processing

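The lists hold positions only, so that neither signal height nor depth could be weighed, and with 2 libraries per genotype no p below 0.333 was possible. Of 137 alternatives for 12 results, 48 moved a value by less than its tolerance, 87 moved it by more and 2 turned its direction. For shares and medians the tolerance was a 95% interval over regions or genes, and for counts it was a fixed fold limit. The ratio of peak bases was called the same unless its direction turned. Since regions and genes are not replicates, this tally does not measure stability against the spread between libraries. The cause of these shifts was not tested.

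With the threshold at 300 bp, 35091 regions were found, 4610 and 5995 of them with more bases in both HDAC7-deficient and both wild-type libraries. The intergenic share was then 50.5%, CpG 0.669 per 100 bp, the soft-masked median 30.4%, dinucleotide repeats 6.92%, genes with a region in the body or 2000 bp around it 35.4% and tandem repeats 3.90%. With 600 bp, 2731 regions were found (338 and 443), with 46.2% intergenic, 4.65% in promoters, 0.708 CpG per 100 bp, 24.4% soft-masked, 8.64% with dinucleotide repeats, 5.73% of genes and 6.66% tandem. Merging peaks up to 100 bp apart gave 20947 regions, with 2805 higher in both HDAC7-deficient libraries and 3478 higher in both wild-type libraries. The 20947 regions held 0.706 CpG per 100 bp, were 29.8% soft-masked and had dinucleotide repeats in 10.3%. Their skew was 0.271, 3.75% were tandem, and 26.4% of genes held one. Peaks of at least 200 bp left 7587 regions (958 and 1308), with 48.3% intergenic, 0.670 CpG per 100 bp and 28.2% soft-masked. They held 12.8% of genes, a skew of 0.352 and 6.88% tandem. The share over all shared regions was not computed for these settings, so the counts per genotype have no background beside them.

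Leaving out regions with 50% or more soft-masked bases gave 44.0% intergenic, 4.79% in promoters, 0.806 CpG per 100 bp, 19.9% soft-masked, 5.58% with dinucleotide repeats, 17.2% of genes, a skew of 0.314 and 1.25% tandem. Any overlap in place of the midpoint gave 48.4% intergenic and 6.82% in promoters, and promoters from 2000 bp upstream to 500 bp downstream 8.02%. Bases under peaks of all libraries held 0.610 CpG per 100 bp and were 30.6% soft-masked. Dinucleotide repeats were present in 21.1% with 6 units and in 3.75% with 15. Genes with a region made 18.1% by gene body alone, 27.8% with 10000 bp around it and 19.1% on chromosomes 1 to 13. The skew was 0.326 in windows of 200 bp, 0.277 in windows of 800 bp and 0.308 in windows without a soft-masked base, and with 50% of bases equal tandem repeats made 11.8%.

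Leaving out 1 library at a time gave 18446 to 22344 regions, the most without wild-type replicate 2 and 21307 without HDAC7-deficient replicate 1. The ratio of peak bases was 0.924 to 1.04, and turned to 1.02 without wild-type replicate 2 and 1.04 without HDAC7-deficient replicate 1. In these larger sets, with fewer libraries to order, the regions with more bases in HDAC7-deficient libraries numbered 3917 to 8000. Those with more in wild-type libraries numbered 5910 to 8472. The intergenic share was 49.4% to 50.7%, CpG 0.655 to 0.683 per 100 bp, the soft-masked median 29.4% to 29.8%, dinucleotide repeats 5.79% to 7.60%, genes 24.3% to 26.7%, skew 0.309 to 0.342 and tandem repeats 4.27% to 5.79%.

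With the replicate block, the ratio of HDAC7-deficient to wild-type peak bases was 0.985, being 0.963 within replicate 1 and 1.01 within replicate 2, and the libraries share only a number.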
